A study of Arabidopsis thaliana with 9 samples.

Results

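In seedlings of Arabidopsis thaliana grown under red light, 37 genes had at least 2 times as much RNA in the hy5 mutant as in wild type while staying near the wild-type level in the bbx202122 triple mutant. They are 37 of the 24640 genes listed in at least 1 of 9 RNA-seq libraries. They were chosen on CPM, a count scaled to library depth, here the RSEM expected count of a gene divided by the sum over its library and multiplied by 1e6. A gene needed a nuclear identifier (chromosomes 1 to 5), a mean of at least 1 CPM in wild type, a hy5 mean of at least 2 times wild type, and means in bbx202122 and wild type of which neither was under 0.8 of the other. All hy5 libraries also had to lie above all others, which 8.45% of the 19353 nuclear genes at 1 CPM or more in wild type did. The fold of hy5 over wild type and the closeness of bbx202122 to wild type are therefore the rule itself, and their values are given below as a description. Counts of calls in these contrasts follow from the choice and support nothing. "Higher in hy5 only" refers to these 3 genotypes and these limits.

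The groups were hy5, bbx202122 (bbx20 bbx21 bbx22) and wild type (WT, ecotype Col-0), with 3 libraries each of whole seedlings aged 4 days. The labels state an ecotype for WT alone and name no allele of either mutant. In all 3 groups the seeds were sown on medium without sucrose, stratified for 2 days at 4 °C, given 2 h of white light at 90 µmol per square metre and second and kept in darkness for 22 h. Red light of 80 µmol per square metre and second then followed for 3 days, with the temperature held at 22 °C. Nothing in the labels says whether replicates were separate cultures, so errors measure the spread between these samples. The libraries held 21577036 to 22778710 counts, so that 3 counts correspond to 0.132 to 0.139 CPM.

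HY5 is a bZIP transcription factor that accumulates in light and binds DNA elements with an ACGT core, such as the G-box. It has no strong activation domain of its own, and B-box proteins, among them BBX20, BBX21 and BBX22, bind to it and act as transcriptional co-factors. HY5 is best known in seedlings for promoting photomorphogenesis and anthocyanin accumulation, mostly by raising the expression of its target genes. HY5 RNA itself was at 8.77, 8.85 and 6.35 CPM in hy5, 6.06, 6.85 and 6.45 CPM in bbx202122 and 15.8, 16.6 and 18.3 CPM in WT. It was lower in both mutants than in WT with no overlap, and where the hy5 allele lies in the gene is not known here. BBX21 and BBX22 were lower in bbx202122 (26.2 and 2.75 CPM on average) than in WT (101 and 29.2 CPM). BBX20 was at 4.16, 4.42 and 3.95 CPM in bbx202122 and 5.09, 4.36 and 4.38 CPM in WT, which overlap, so the counts do not mark the bbx20 lesion. In hy5, BBX20, BBX21 and BBX22 averaged 2.08, 133.5 and 29 CPM, against 4.61, 101 and 29.2 CPM in WT.

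Summed over the 37 genes, the level was 1349, 1207 and 1218 CPM in hy5, 598, 603 and 568 CPM in bbx202122, and 479, 507 and 582 CPM in WT. The genes took up 0.126% of all counts in hy5, 0.0590% in bbx202122 and 0.0523% in WT. Single ratios of hy5 over WT ran from 2.02 to 5.45 (median 2.5). They were under 2.5 for 18 genes, at 2.5 to 3.5 for 15 and above that for 4. The bbx202122 mean was above the WT mean for 25 genes and below it for 12, with a median ratio of 1.11. Levels were modest: 20 genes lay under 5 CPM in WT, 10 at 5 to 20 CPM and 7 at 20 CPM or more.

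**Figure D1:**
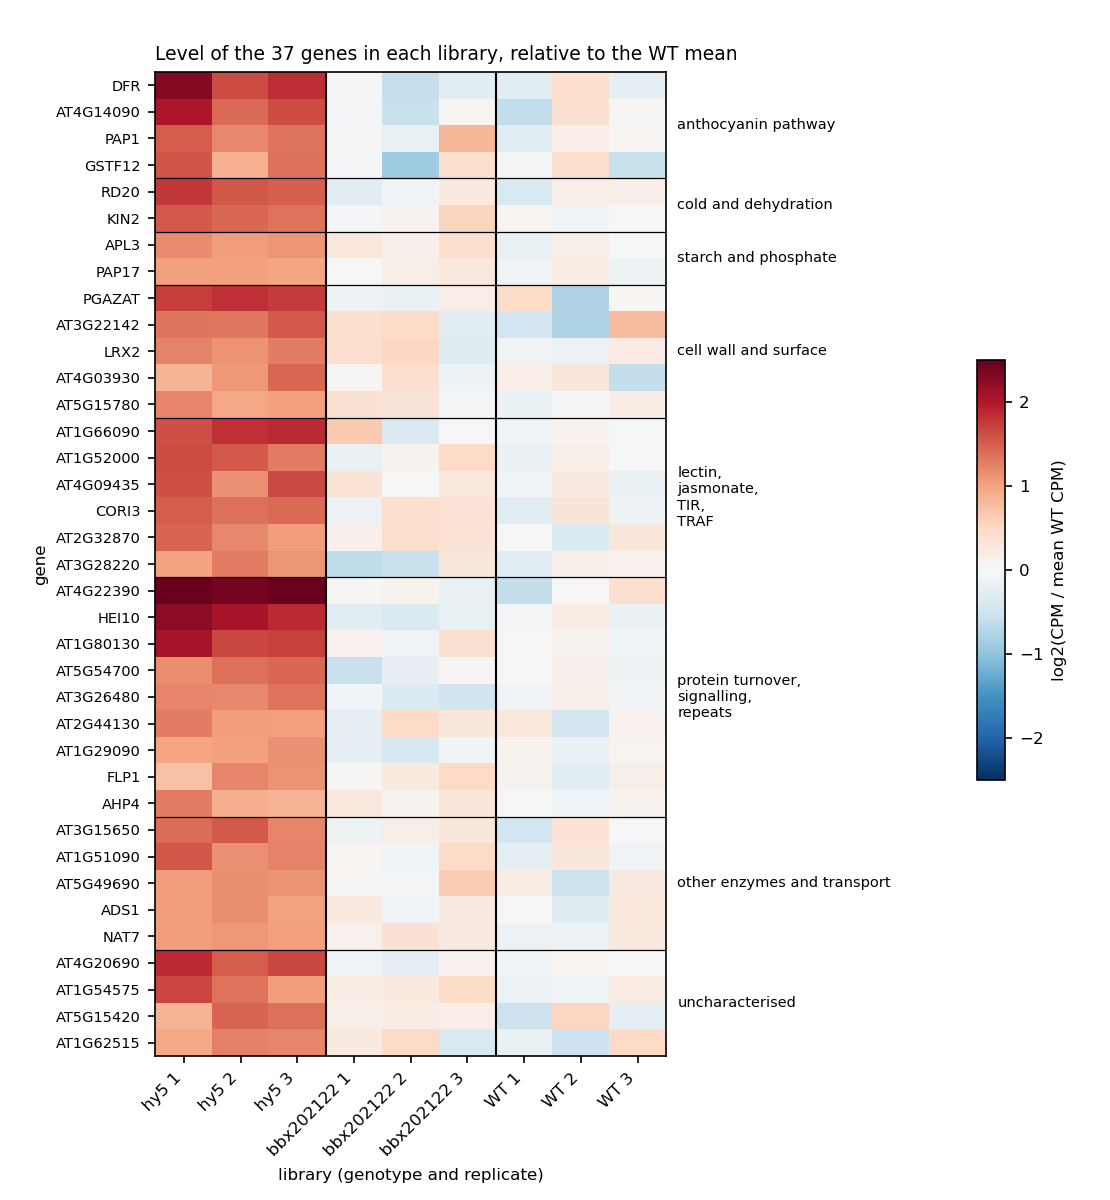
Each row is 1 of the 37 genes, grouped by the kind of product, and each column is 1 library. Colour gives log2 of CPM over the mean WT CPM (red higher, blue lower). The hy5 columns are red throughout, with the strongest colour at AT4G22390 (ratio 5.45), HEI10 (4.17) and DFR (3.86), while bbx202122 and WT columns hold both tints.

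All 37 genes passed edgeR's quasi-likelihood test as higher in hy5 than in WT (Benjamini-Hochberg adjusted p under 0.05), as did 19.6% of the 20751 genes tested, while 19.8% were lower. All 37 were also higher in hy5 than in bbx202122, where 10.9% of genes were and 23.0% were called in either direction. In bbx202122 against WT edgeR called 0 of the 37, where 16.9% of all genes were called in either direction (8.62% higher and 8.27% lower). The rule used all 3 contrasts and kept bbx202122 near WT, so nothing is read from these counts. DESeq2 and limma called 0 as well. At an unadjusted p under 0.05 edgeR gave 2 (APL3 and AT1G29090), limma 2 and DESeq2 1. Leaving out 1 library brought calls in 4 of 9 cases, 3 without bbx202122 replicate 3 (LRX2, AT3G28220 and AT5G15780) and 1 each without WT replicate 2 (APL3), WT replicate 3 (AT3G22142) or bbx202122 replicate 1 (KIN2). The bbx202122 and WT libraries overlapped for 35 of the 37. For HEI10 and AT3G26480 all bbx202122 libraries lay below all WT libraries, a separation that 15.0% of the 19353 nuclear genes at 1 CPM or more in WT showed.

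The 37 are a minority of the genes raised in hy5. At least 2 times the WT level with no overlap was reached by 195 nuclear genes. In 152 of these bbx202122 stood above the upper limit, in 6 it stood below 0.8 of WT, and the remaining 37 are the genes described here. The median bbx202122 over WT ratio of the 195 was 1.62.

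**Figure D2:**
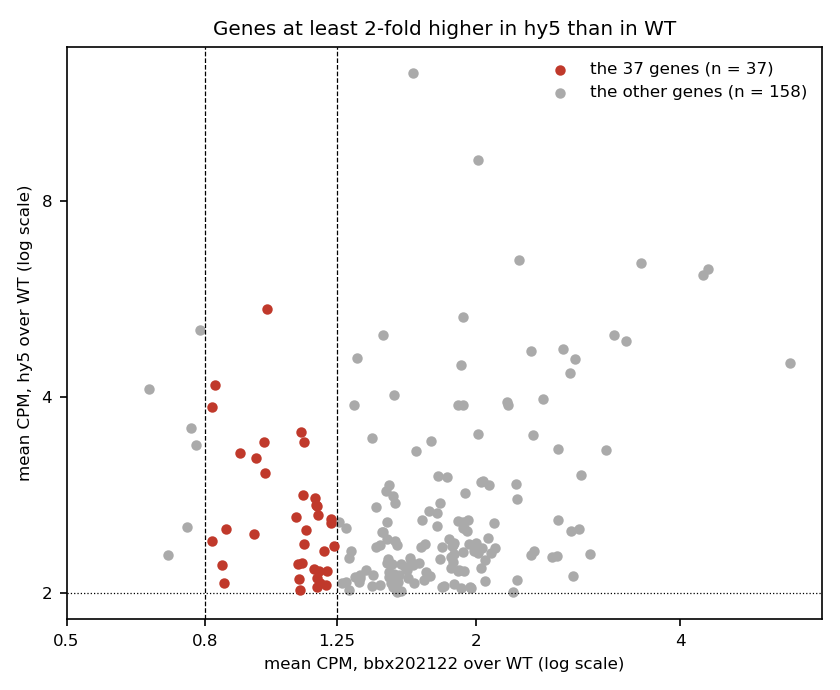
Each point is 1 of the 195 genes that were at least 2-fold higher in hy5 than in WT with no overlap. The horizontal axis is the mean CPM of bbx202122 over WT and the vertical axis that of hy5 over WT, both on log scales. The 37 genes (red) lie between the dashed lines of the rule, and 152 of the others lie to the right of them.

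Replicates differed in which genes they favoured. Within hy5, replicate 1 held the highest value of 19 genes, replicate 2 of 10 and replicate 3 of 8. Within bbx202122 the highest value fell in replicate 3 for 21 genes, in replicate 2 for 10 and in replicate 1 for 6. Within WT, replicate 2 was highest for 21 genes, replicate 3 for 12 and replicate 1 for 4. The median coefficient of variation was 10.5% in hy5, 16.6% in bbx202122 and 15.1% in WT, against 6.09%, 6.99% and 6.43% over all nuclear genes at 1 CPM or more in WT, whose median WT level was also higher (18.9 against 4.37 CPM).

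The largest group with a shared pathway belonged to anthocyanin synthesis, the branch of flavonoid metabolism that makes red and purple pigments. DFR (AT5G42800), which makes the leucoanthocyanidins, had 39.0, 24.8 and 28.8 CPM in hy5, 7.74, 5.36 and 6.54 CPM in bbx202122 and 6.55, 10.7 and 6.79 CPM in WT. Its lowest hy5 library was 2.32 times the highest of the others, and the hy5 over WT ratio of means was 3.86. AT4G14090, annotated as a UDP-glycosyltransferase and known as UGT75C1, adds glucose to anthocyanins. It had 17.1, 11.3 and 12.9 CPM in hy5, 4.13, 2.86 and 4.35 CPM in bbx202122 and 2.74, 5.57 and 4.27 CPM in WT. GSTF12 (AT5G17220, also TT19), a glutathione S-transferase needed to carry anthocyanins to the vacuole, had 10.7, 6.69 and 9.32 CPM in hy5, 3.53, 1.94 and 4.75 CPM in bbx202122 and 3.5, 4.87 and 2.46 CPM in WT. PAP1 (AT1G56650, also MYB75), the MYB transcription factor that switches on the late anthocyanin genes, had 8.08, 6.52 and 7.18 CPM in hy5, 2.9, 2.48 and 5.05 CPM in bbx202122 and 2.37, 3.20 and 2.95 CPM in WT. In all 4 genes hy5 replicate 1 was the highest library and hy5 replicate 2 the lowest of hy5. The 3 enzyme and transport genes peaked within WT in replicate 2 and were lowest within bbx202122 in replicate 2. For PAP1, bbx202122 replicate 3 stood at 5.05 CPM, closer to the lowest hy5 library (6.52 CPM) than to the other bbx202122 libraries.

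**Figure D3:**
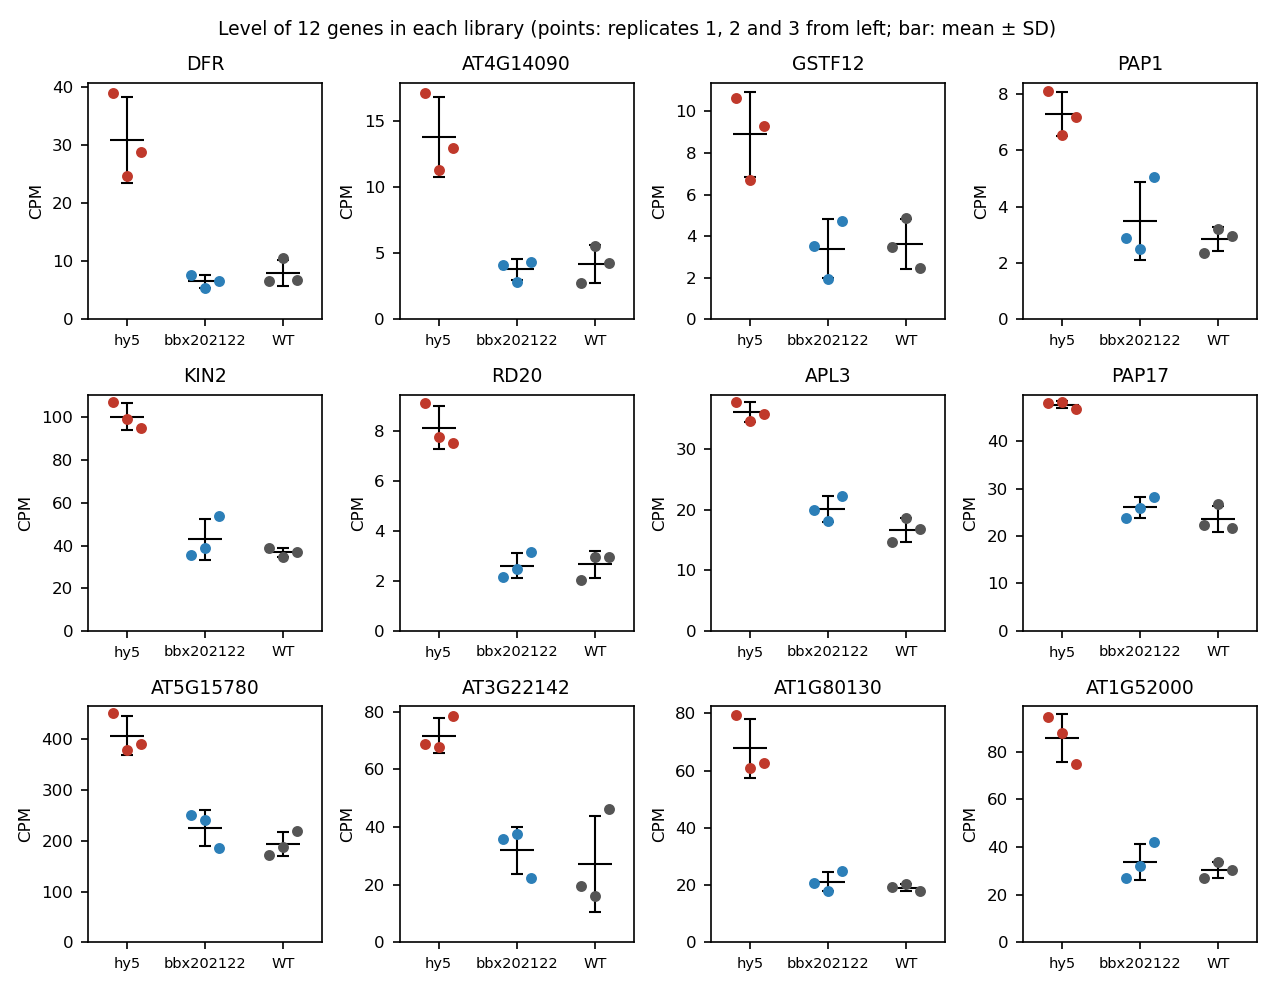
CPM of 12 of the 37 genes in each library (points, replicates 1, 2 and 3 from left to right within a group) with the mean and SD of 3 libraries (black), in hy5, bbx202122 and WT. Hy5 lies above the others in every panel by the rule. PAP1, KIN2 and AT1G52000 have a high bbx202122 replicate 3, and AT3G22142 a WT replicate 3 at 46.2 CPM.

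The bases upstream of DFR and GSTF12 show how different the promoters of 2 genes of 1 pathway are. Both are read 5′ to 3′ as the 250 bases before the annotated start, from the RefSeq annotation of build TAIR10.1, and ACGT, the core that HY5 binds, is in capitals. DFR lies on the minus strand (chr5:17166033-17166282) and GSTF12 on the plus strand (chr5:5658166-5658415).
DFR: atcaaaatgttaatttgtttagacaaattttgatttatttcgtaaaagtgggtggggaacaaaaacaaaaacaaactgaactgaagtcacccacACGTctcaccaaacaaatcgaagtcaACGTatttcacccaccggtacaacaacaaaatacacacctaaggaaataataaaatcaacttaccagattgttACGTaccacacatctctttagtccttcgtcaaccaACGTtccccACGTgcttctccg
GSTF12: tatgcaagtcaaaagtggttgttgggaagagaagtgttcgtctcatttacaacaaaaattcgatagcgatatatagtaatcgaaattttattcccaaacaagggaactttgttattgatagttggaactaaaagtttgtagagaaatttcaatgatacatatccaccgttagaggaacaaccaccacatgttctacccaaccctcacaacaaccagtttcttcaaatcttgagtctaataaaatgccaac
The DFR stretch holds ACGT at 5 places, the ones at positions -156 and -13 from the start being within CACGTC and CACGTG. The GSTF12 stretch holds none, and neither did the corresponding stretches of AT4G14090 and PAP1. Past the start, and not printed, DFR has a further CACGTG at 11 bases and PAP1 a CACGTC at 32 bases. A match is a description of letters and not of binding.

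The early and late genes of the pathway are given by their lists, and a difference between the lists was not tested. Over all genes tested, 19.6% rose and 19.8% fell in hy5 against WT, and 8.62% rose and 8.27% fell in bbx202122 against WT. Of 10 early flavonoid enzymes, which act in the shared first steps and the flavonol branch and hold none of the 37, 2 rose and 4 fell in hy5 against WT (median log2 fold change -0.13), and 2 fell without hy5 replicate 2. In bbx202122 7 of the 10 fell (median -0.64). Of 9 tested genes of a list of late flavonoid and anthocyanin enzymes and transport, 6 rose in hy5 against WT and 1 fell (median log2 fold change 1.39, against 0.00 over all genes). In bbx202122 against WT 2 fell and the others did not pass the test (median -0.38). DFR, AT4G14090 and GSTF12 are 3 of the 6, so these counts are partly the rule's own. UF3GT, a glycosyltransferase of anthocyanins, had 11.2, 6.39 and 6.998 CPM in hy5, 1.81, 1.40 and 2.02 CPM in bbx202122 and 2.14, 2.32 and 2.41 CPM in WT. Its log2 fold change in hy5 against WT was 1.89 ± 0.21 (edgeR adjusted p = 4.49e-06). LDOX, the enzyme after DFR, had 30.1, 18 and 18.8 CPM in hy5, 5.47, 3.51 and 6.41 CPM in bbx202122 and 6.46, 8.39 and 5.001 CPM in WT, with a log2 fold change of 1.81 ± 0.21 (edgeR adjusted p = 9.49e-06). Both failed the rule because bbx202122 was at 0.761 and 0.776 of WT, under its limit. AT5MAT, a malonyltransferase of anthocyanins, rose by 1.39 ± 0.21 (edgeR adjusted p = 0.000113). SCPL10, an acyltransferase of the same modifications, fell in hy5 (-0.36 ± 0.09, edgeR adjusted p = 0.00651). AT5MAT and TT7, the latter on the early list, also had bbx202122 means under the limit, at 0.751 and 0.706 of WT. Their hy5 means were 2.53 and 2.29 times WT.

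Among 14 tested regulators of the MYB, bHLH and WD40 complex, 5 rose in hy5 against WT and 4 fell (median log2 fold change 0.02), and only 3 rose without hy5 replicate 2. With all libraries, 19.6% of all genes tested rose and 19.8% fell. MYBL2, a repressor of anthocyanin synthesis, rose by 1.04 ± 0.10 (edgeR adjusted p = 1.1e-06), to 25.3 ± 1.67 CPM in hy5, against 12.8 ± 1.99 CPM in WT (SD, n = 3 each). MYB12, an activator of early flavonol genes, was at 0.231, 0.228 and 0.0921 CPM in hy5, 0.633, 0.586 and 0.527 CPM in bbx202122 and 3.64, 3.66 and 2.95 CPM in WT, and its fold change was -4.12 ± 0.28 (edgeR adjusted p = 3.46e-08). The bHLH partners EGL3 and GL3 fell by 0.82 ± 0.12 and 1.77 ± 0.26 (edgeR adjusted p = 7.37e-05 and 8.49e-05). PAP1 is 1 of the 5 that rose, by the rule.

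Cold and drought genes gave 2 of the 37. KIN2 (AT5G15970, also COR6.6), a small cold- and abscisic-acid-induced protein, had 107, 99.3 and 94.9 CPM in hy5, 35.6, 39.1 and 53.9 CPM in bbx202122 and 38.8, 34.6 and 37.1 CPM in WT. RD20 (AT2G33380), a caleosin of lipid bodies induced by dehydration, had 9.09, 7.76 and 7.50 CPM in hy5, 2.17, 2.48 and 3.16 CPM in bbx202122 and 2.05, 2.97 and 2.95 CPM in WT. In both, hy5 replicate 1 was the highest library and bbx202122 replicate 3 the highest of its group. KIN1, the tandem neighbour of KIN2 at 892 bases, was at 10.9, 8.66 and 9.49 CPM in hy5, 2.01, 2.87 and 5.42 CPM in bbx202122 and 8.18, 6.03 and 6.30 CPM in WT. All bbx202122 libraries of KIN1 lay below all WT libraries, as did those of 15.0% of the 19353 nuclear genes at 1 CPM or more in WT. Those of KIN2 overlapped with WT, but the rule had kept its bbx202122 mean near WT, so this does not set the genes apart.

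Of 24 tested cold and dehydration genes, these 2 included, 13 rose in hy5 against WT and the others did not pass the test (median log2 fold change 0.43). In bbx202122 4 rose and 1 fell (median 0.15). The shares of all genes tested were 19.6% higher and 19.8% lower in hy5, and 8.62% higher and 8.27% lower in bbx202122. COR15A, which protects chloroplast membranes in freezing, had 16.3, 14.1 and 13.9 CPM in hy5, 0.543, 2.07 and 2.37 CPM in bbx202122 and 1.05, 0.603 and 0.759 CPM in WT, and its fold change in hy5 against WT was 4.25 ± 0.28 (edgeR adjusted p = 2.71e-08). COR15B had 15.5, 14 and 14 CPM in hy5, 1.03, 2.2 and 3.43 CPM in bbx202122 and 1.07, 0.956 and 0.885 CPM in WT (3.92 ± 0.25, edgeR adjusted p = 1.68e-08). RD29A, a dehydration-responsive marker gene, and COR413IM1, an inner-membrane chloroplast protein, changed by 1.51 ± 0.13 and 1.05 ± 0.10 (edgeR adjusted p = 2.72e-07 and 9.45e-07). In all 4, and in KIN2 and RD20, bbx202122 replicate 3 was the highest of its group. The summed level of the list was 2885 to 3348 CPM in hy5, 2313 to 2928 CPM in bbx202122 and 1997 to 2463 CPM in WT. Seed storage and embryo markers, which share abscisic-acid control, summed to 107 to 149 CPM in hy5, 58.4 to 118 CPM in bbx202122 and 76.7 to 137 CPM in WT, with 2 of 10 tested markers higher in hy5 against WT. Their part in the result was not tested.

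The stretches before KIN2 and RD20, the cold and drought genes of the set, are shown with ACGT in capitals. That both rose in hy5 is the rule's own. KIN2 is on the plus strand (chr5:5211469-5211718) and RD20 on the minus strand (chr2:14146556-14146805) of TAIR10.1.
KIN2: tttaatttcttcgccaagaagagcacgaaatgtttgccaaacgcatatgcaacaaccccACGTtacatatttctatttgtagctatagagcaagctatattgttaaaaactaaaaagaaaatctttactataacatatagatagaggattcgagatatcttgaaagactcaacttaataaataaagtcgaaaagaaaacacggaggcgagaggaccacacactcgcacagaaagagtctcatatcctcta
RD20: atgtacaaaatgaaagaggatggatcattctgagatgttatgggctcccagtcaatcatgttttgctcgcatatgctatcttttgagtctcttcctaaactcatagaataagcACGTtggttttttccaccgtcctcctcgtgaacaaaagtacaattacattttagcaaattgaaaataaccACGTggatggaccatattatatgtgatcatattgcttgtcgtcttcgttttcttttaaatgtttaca
KIN2 has ACGT at -191, and a CACGTG at 31 bases past the start is not printed. RD20 has it at -137 and, within CACGTG, at -67, and a further CACGTG at 16 bases past the start is not printed.

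APL3 (AT4G39210), a large subunit of ADP-glucose pyrophosphorylase, the enzyme that commits sugar to starch, had 37.8, 34.5 and 35.7 CPM in hy5, 19.9, 18.1 and 22.3 CPM in bbx202122 and 14.6, 18.5 and 16.8 CPM in WT. The hy5 libraries varied little (coefficient of variation 4.59%), and bbx202122 stood at 1.21 of WT. Of 28 starch and plastid sugar genes, APL3 included, 19 rose in hy5 against WT and 2 fell (median log2 fold change 0.36), and in bbx202122 9 rose and 2 fell (median 0.12). For all genes tested the shares were 19.6% higher and 19.8% lower in hy5, and 8.62% higher and 8.27% lower in bbx202122. GPT2, a glucose-phosphate carrier of plastids, had 33.0, 25.9 and 27.8 CPM in hy5, 6.33, 4.05 and 8.52 CPM in bbx202122 and 2.68, 4.40 and 2.28 CPM in WT (3.27 ± 0.21 in hy5 against WT, edgeR adjusted p = 1.96e-08). GWD1, which phosphorylates starch for its breakdown, changed by 1.16 ± 0.07 (edgeR adjusted p = 1.68e-08), the debranching enzyme ISA3 by 1.14 ± 0.07 (edgeR adjusted p = 1.22e-08) and the glucan phosphatase SEX4 by 1.29 ± 0.08 (edgeR adjusted p = 2.24e-08). All 4 were also called higher in bbx202122 against WT, with log2 fold changes of 1.003, 0.56, 0.56 and 0.50. APL3 was not called there (0.26), but the rule had kept its bbx202122 mean near WT. The contrast with APL3 therefore follows from the choice, and the difference was not itself tested. The GPT2 call in bbx202122 was lost without WT replicate 1 (0.90, edgeR adjusted p = 0.0561), without WT replicate 3 (0.82, 0.0576) or without bbx202122 replicate 3 (0.72, 0.0549).

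PAP17 (AT3G17790), a purple acid phosphatase induced when phosphate is short, had 48.0, 48.2 and 46.7 CPM in hy5, 23.9, 26.0 and 28.2 CPM in bbx202122 and 22.3, 26.8 and 21.7 CPM in WT. Its hy5 libraries had a coefficient of variation of 1.64%, and its ratio of 2.02 was the lowest that the rule admitted. Of 21 tested phosphate starvation genes, PAP17 included, 15 rose in hy5 against WT and 4 fell (median log2 fold change 0.41), and in bbx202122 3 rose and 5 fell (median -0.03). Across all genes tested, 19.6% rose and 19.8% fell in hy5, and 8.62% rose and 8.27% fell in bbx202122. GDPD1, a glycerophosphodiester phosphodiesterase, changed by 1.39 ± 0.07 (edgeR adjusted p = 1.34e-09). SQD1, which makes sulfolipid in place of phospholipid, changed by 0.98 ± 0.06 (edgeR adjusted p = 6.21e-09). SPX1, a phosphate sensor protein, changed by 1.01 ± 0.09 (edgeR adjusted p = 5.33e-07), and the phospholipase NPC4 fell by 2.29 ± 0.23 (edgeR adjusted p = 1.63e-06). SQD1 was at 182, 183 and 190.5 CPM in hy5, 116, 104 and 104 CPM in bbx202122 and 98.3, 96.7 and 97.5 CPM in WT, and it and SPX1 were not called in bbx202122 against WT, while GDPD1 rose there (0.35, edgeR adjusted p = 0.00275). Without WT replicate 2 SPX1 was called too (0.25, edgeR adjusted p = 0.0404). The motif P1BS (GNATATNC, both strands), bound by phosphate response factors, was not among the letters of the PAP17 promoter window. It was in 6 of the 37 windows (16.2%, against 6.14% for nuclear genes at 1 CPM or more in WT), those of AT1G66090, RD20, AT1G52000, KIN2, AT5G15420 and AT1G62515.

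**Figure D4:**
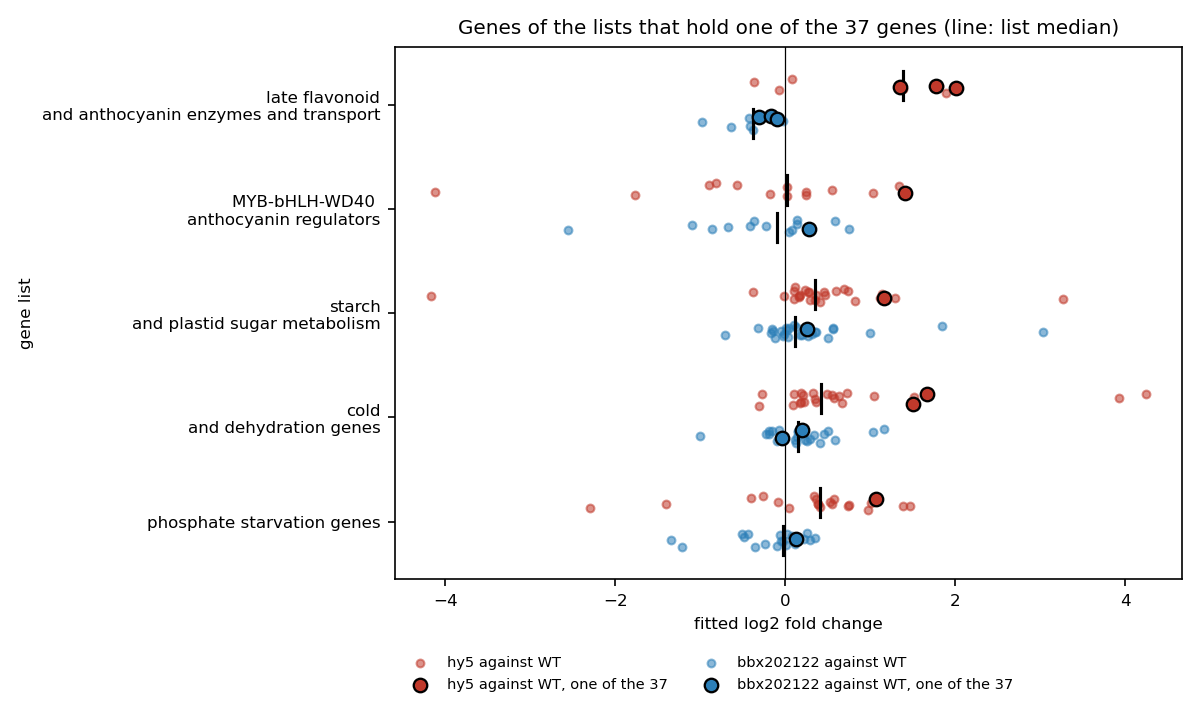
Fitted log2 fold changes of the genes in the 5 lists that hold any of the 37, for hy5 against WT (red, above) and bbx202122 against WT (blue, below), with the list median as a black line. The 37 genes are outlined. In hy5 the medians run from 0.02 to 1.39, and in bbx202122 from -0.38 to 0.15.

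Products of the cell wall and the plant surface ranged from the highest to the lowest hy5 level of the 37. AT5G15780, an extensin-like Ole e 1 family protein, had 450.5, 378 and 391 CPM in hy5, 249.96, 241 and 185 CPM in bbx202122 and 172, 188 and 219 CPM in WT, the highest level of the 37, and 248 FPKM (fragments per kilobase of transcript, scaled for depth) on average in hy5. AT3G22142, a lipid-transfer family protein, had 68.7, 67.7 and 78.6 CPM in hy5, 35.7, 37.5 and 22.5 CPM in bbx202122 and 19.4, 15.9 and 46.2 CPM in WT. LRX2 (AT1G62440), a leucine-rich repeat extensin of the root hair wall, had 53.2, 49.0 and 54.7 CPM in hy5, 30.2, 32.3 and 18.3 CPM in bbx202122 and 21.1, 20.4 and 26.0 CPM in WT. PGAZAT (AT2G41850, also ADPG2), a polygalacturonase that loosens pectin where organs detach, had 15.9, 17.1 and 16.3 CPM in hy5, 4.39, 4.28 and 5.44 CPM in bbx202122 and 6.64, 2.87 and 4.96 CPM in WT. AT4G03930, a pectin methylesterase inhibitor family gene with the lowest hy5 level, was at 2.5 ± 0.522 CPM in hy5, 1.24 ± 0.245 CPM in bbx202122 and 1.13 ± 0.334 CPM in WT (SD, n = 3 each).

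AT5G15780, AT3G22142, LRX2 and the uncharacterised AT1G62515 shared an order of libraries, which AT4G22390 of another product group showed too. In each, WT replicate 3 was the highest WT library and bbx202122 replicate 3 the lowest bbx202122 library. Over the 37 genes, WT replicate 3 was the highest of WT for 12 and bbx202122 replicate 3 the lowest of its group for 7. How often all genes show this order was not counted. AT1G62515 had 44.5, 54.1 and 53.0 CPM in hy5, 26.5, 31.7 and 17.42 CPM in bbx202122 and 20.3, 15.8 and 32.1 CPM in WT. AT3G22142 reached 46.2 CPM in WT replicate 3, above all bbx202122 libraries, so its WT mean rests largely on that library. AT1G62515 and LRX2 lie 21426 bases apart on chromosome 1, with other genes between them.

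Markers of cell types moved in the same libraries. All 8 root hair markers fell in hy5 against WT, and their summed level was 60.8 to 87.1 CPM in hy5, 94.2 to 113 CPM in bbx202122 and 193 to 200 CPM in WT, with every marker detected. LRX2, itself known from root hairs, was higher in the seedlings with the least root hair marker RNA. Of the epidermal markers 6 of 7 rose, with sums of 2052 to 2152 CPM in hy5, 1696 to 1851 CPM in bbx202122 and 1599 to 1730 CPM in WT. Of the endodermal markers 8 of 9 rose, of the xylem markers 6 of 10 and of the phloem markers 5 of 8. Of the mesophyll markers 5 of 8 fell, of those of dividing cells 6 of 10. Of the stomatal lineage markers 5 of 10 fell and 1 rose, and of 9 other root markers 2 rose and 3 fell. Over all genes tested 19.6% rose and 19.8% fell. In whole seedlings fewer cells of a type and less RNA per cell cannot be told apart, and the part these markers have in the 37 genes was not tested.

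Proteins of immune receptor, lectin and jasmonate-linked families formed a further group. AT1G52000, a mannose-binding lectin, had 94.4, 88 and 74.9 CPM in hy5, 27.2, 32.1 and 42 CPM in bbx202122 and 27.0, 33.7 and 30.3 CPM in WT. CORI3 (AT4G23600), an aminotransferase-family enzyme induced by jasmonate and coronatine, had 28.8, 26.2 and 26.9 CPM in hy5, 9.09, 13.2 and 13.0 CPM in bbx202122 and 8.42, 12.5 and 9.24 CPM in WT. The TRAF-like AT3G28220 had 21.2, 25.7 and 22.7 CPM in hy5, 6.79, 7.12 and 12.8 CPM in bbx202122 and 8.69, 11.5 and 11.3 CPM in WT, where bbx202122 replicate 3 was the highest of all non-hy5 libraries and both other bbx202122 libraries were below every WT library. The TRAF-like AT2G32870 was at 5.19 ± 0.769 CPM in hy5, 2.72 ± 0.284 CPM in bbx202122 and 2.2 ± 0.486 CPM in WT (SD, n = 3 each). AT1G66090 and AT4G09435 both belong to the TIR class of intracellular immune receptors. AT1G66090 was at 4.13 ± 0.388 CPM in hy5, 1.36 ± 0.490 CPM in bbx202122 and 1.21 ± 0.0805 CPM in WT (SD, n = 3 each), and AT4G09435 at 3.999 ± 0.738 CPM in hy5, 1.65 ± 0.191 CPM in bbx202122 and 1.43 ± 0.216 CPM in WT (SD, n = 3 each).

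The stretch before AT3G28220 (plus strand, chr3:10523931-10524180, TAIR10.1) is given since it holds the second-most ACGT cores of the 37.
AT3G28220: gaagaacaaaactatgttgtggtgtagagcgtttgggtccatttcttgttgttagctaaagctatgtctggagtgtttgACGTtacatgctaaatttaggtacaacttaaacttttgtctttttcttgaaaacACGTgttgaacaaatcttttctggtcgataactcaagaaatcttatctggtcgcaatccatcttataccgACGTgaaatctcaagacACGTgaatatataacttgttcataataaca
The cores lie at -171, -117, -47 and -30 from the start, and those at -117 and -30 are within CACGTG. At -47 the core lies within GACGTG, which is CACGTC on the other strand.

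Over all 37 promoters, taken from 250 bases before to 50 bases after the start and read on both strands, ACGT was present in 21 (56.8%), against 50.6% of the promoters of nuclear genes at 1 CPM or more in WT. CACGTG was present in 5 (13.5% against 8.99%), namely DFR, PGAZAT, RD20, KIN2 and AT3G28220, and CACGTC in 6 (16.2% against 7.59%). GACGTC was not among the letters of any of the 37 windows and was in 3.09% of the larger set. These 3 hexamers all contain the ACGT core and are counted again in it. Of the 199 genes that were lower in hy5 only by the mirrored rule, 53.3% held ACGT and 9.05% CACGTG. These shares are descriptive.

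Several of the 37 act in protein turnover and signalling. AT1G80130, a tetratricopeptide repeat protein, had 79.5, 61.0 and 62.8 CPM in hy5, 20.8, 18.1 and 24.8 CPM in bbx202122 and 19.4, 20.3 and 17.8 CPM in WT. AHP4 (AT3G16360), a phosphotransfer protein of the cytokinin pathway, was at 21.4 ± 3.58 CPM in hy5, 12.2 ± 0.956 CPM in bbx202122 and 10.5 ± 0.743 CPM in WT (SD, n = 3 each). KMD3 (AT2G44130), a kelch-repeat F-box protein that targets cytokinin response regulators for degradation, was at 19.7 ± 2.07 CPM in hy5, 10.5 ± 2.5 CPM in bbx202122 and 9.06 ± 2.21 CPM in WT (SD, n = 3 each). AT1G29090, a cysteine protease, was at 18.5 ± 1.16 CPM in hy5, 7.61 ± 0.881 CPM in bbx202122 and 8.94 ± 0.876 CPM in WT (SD, n = 3 each). AT4G22390, an F-box-associated protein, had 6.14, 5.79 and 6.12 CPM in hy5, 1.13, 1.17 and 0.966 CPM in bbx202122 and 0.728, 1.11 and 1.47 CPM in WT, and its ratio of 5.45 was the highest of the 37 on a low WT level of 1.1 CPM. AT3G26480 (WD40 repeats), AT5G54700 (ankyrin repeats) and FLP1 (AT4G31380, related to a factor that promotes flowering) stood at 5.21, 4.79 and 2.74 CPM in hy5 on average, and at 2.17, 1.91 and 1.33 CPM in WT.

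HEI10 (AT1G53490), a RING protein known for its role in meiotic crossovers, had 13.6, 12 and 10.6 CPM in hy5, 2.4, 2.27 and 2.53 CPM in bbx202122 and 2.80, 3.3 and 2.59 CPM in WT. It overlaps MRD1 (AT1G53480) on the opposite strand over 1446 bases in TAIR10.1. MRD1 was at 24.6, 26.4 and 26.4 CPM in hy5, 0, 0.258 and 0.363 CPM in bbx202122 and 0.244, 0.319 and 0.129 CPM in WT, a log2 fold change in hy5 against WT of 6.84 ± 0.23 (edgeR adjusted p = 2.37e-11). The mean transcript length that RSEM assigned to HEI10 also differed: it was 1583, 1462 and 1474 bases in hy5, 1210.3, 1049 and 1181 in bbx202122 and 1054, 1243 and 1301 in WT. The hy5 lengths lay above all others, which of 9044 genes with a varying length 6.68% had in either direction, and of the 13 such genes among the 37 only HEI10 did. The ratio of hy5 over WT was 4.17 on CPM and 3.27 on FPKM, which divides by that length. The library protocol names no step that marks strand, and whether the counts separate the strands is not known here. Reads of HEI10 and MRD1 may therefore be mixed where the genes overlap.

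**Figure D5:**
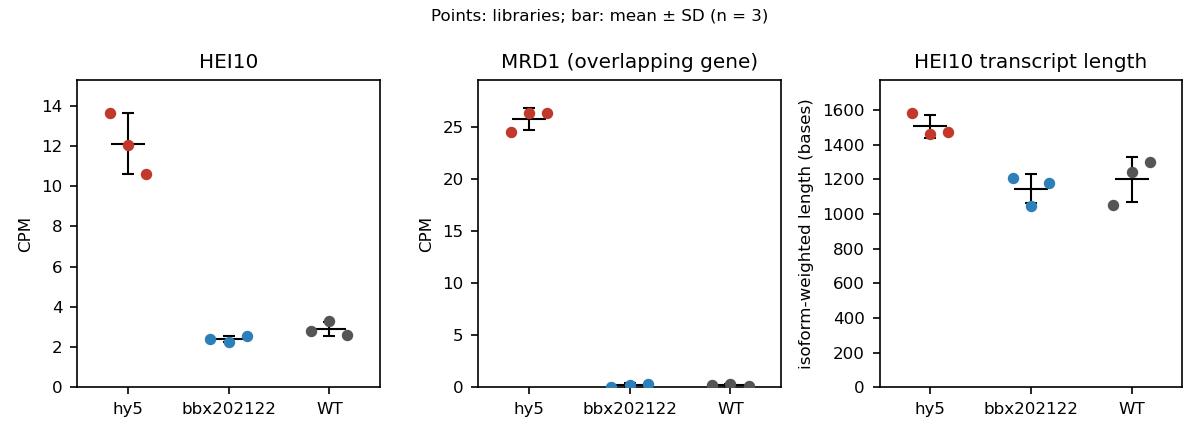
HEI10 level (left, CPM), level of the overlapping gene MRD1 (middle, CPM) and isoform-weighted HEI10 transcript length (right, bases) in each library, with mean and SD of 3. MRD1 is at 24.6 to 26.4 CPM in hy5 and at most 0.363 CPM elsewhere, and the HEI10 lengths of hy5 lie above those of bbx202122 and WT.

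Of the 37, 13 overlap another annotated gene and 11 a protein-coding one, so their counts may carry this limit. AT1G62515 overlaps AT1G62510 by 535 bases on the opposite strand, and AT1G62510 changed by 0.99 ± 0.12 (edgeR adjusted p = 1.28e-05) in hy5 against WT. AT3G22142 lies wholly within the span of AT3G22125 on the opposite strand, which changed by 0.64 ± 0.16 (edgeR adjusted p = 0.00532). AT4G20690 overlaps AT4G20700 by 182 bases on the opposite strand. AT4G20700 was at 0.664 CPM in hy5, 0.528 CPM in bbx202122 and 0.286 CPM in WT on average (1.23 ± 0.43, edgeR adjusted p = 0.0328), a call that DESeq2 and limma did not make and that was lost without WT replicate 1, WT replicate 3, hy5 replicate 1 or hy5 replicate 3 (edgeR adjusted p 0.0795 to 0.134). KMD3 is overlapped over all its 1445 bases by AT2G44140 on the opposite strand, which did not pass the test at 0.07 ± 0.06 (edgeR adjusted p = 0.344). AT4G09435 overlaps AT4G09430 by 31 bases on the same strand. AT4G09430 was at 1.75 CPM in hy5, 0.0891 CPM in bbx202122 and 0.0607 CPM in WT on average (4.78 ± 0.46, edgeR adjusted p = 1.06e-06). AT4G03930 has as its left neighbour, 77963 bases away, AT4G03830, which averaged 4.55 CPM in hy5 and 0 CPM in bbx202122 and in WT, at least 33.3-fold higher in hy5 when 3 counts per library are taken as the floor. The labels give no ecotype or allele for hy5. A difference between the lines and the hy5 lesion therefore cannot be told apart in any hy5 value given here. This covers all of the 37 genes as well as MRD1, AT4G09430 and AT4G03830. Sequence can also be repeated: AT4G20690 had 39.7% of its 50-base transcript words at more than 1 place in the genome, AT3G22142 15.5%. For AT4G03930, AT5G15420, AT4G22390 and AT5G54700 it was between 5.09% and 7.01%. These places include repeats within the gene itself, and whether the others are transcribed was not checked.

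Neighbouring genes moved in both directions. None of the 37 was next to another. Of 61 tested neighbours 15 rose and 12 fell in hy5 against WT, which is 44.3% against 39.5% of all genes tested, with a median log2 fold change of 0.01. The 37 were spread over chromosomes 1 to 5 as 12, 4, 6, 8 and 7 genes.

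The rest were enzymes, transporters and genes without a described function. ADS1 (AT1G06080), a delta 9 fatty acid desaturase, had 28.2, 30.3 and 27.4 CPM in hy5, 16.1, 12.9 and 15.8 CPM in bbx202122 and 13.5, 11.0 and 16.3 CPM in WT. AT3G15650 (alpha/beta-hydrolase), AT5G49690 (UDP-glycosyltransferase), AT1G51090 (heavy-metal transport family) and NAT7 (AT1G60030, a nucleobase-ascorbate transporter) had hy5 over WT ratios of 2.61, 2.16, 2.5 and 2.07, with hy5 means of 9.02, 8.36, 6.42 and 6.34 CPM. The uncharacterised AT4G20690 had 15.9, 12.4 and 14 CPM in hy5, 4.03, 3.71 and 4.73 CPM in bbx202122 and 4.15, 4.55 and 4.42 CPM in WT, and AT1G54575 had 24.9, 20.08 and 16.3 CPM in hy5, 8.87, 9.24 and 10.8 CPM in bbx202122 and 7.10, 7.42 and 9.02 CPM in WT. AT5G15420 was at 3.84 ± 0.8002 CPM in hy5, 1.81 ± 0.0461 CPM in bbx202122 and 1.62 ± 0.643 CPM in WT (SD, n = 3 each), and its WT replicate 2 reached 2.35 CPM, near its lowest hy5 library at 2.93 CPM. Per length the highest of the 37 in hy5 were AT5G15780 (248 FPKM), KIN2 (137), AT1G62515 (118) and AT1G80130 (46).

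Values near the limits show how narrow the choice was. Just inside the fold limit lay PAP17 (2.02), AHP4 (2.05) and FLP1 (2.06), and just outside it the flowering gene AGL20 (1.94), AT3G44120 (1.94) and AT5G42680 (1.98). At the upper bbx202122 limit PAP1 (1.22), AT1G54575 (1.23) and AT2G32870 (1.24) were inside, and AT1G68250 (1.26), ENDO2 (1.27) and AT2G37030 (1.29) were outside. At the lower limit AT3G26480 (0.817), DFR (0.818) and HEI10 (0.828) were inside, and AT1G25180 (0.786), LDOX (0.776) and UF3GT (0.761) were outside. On level, AT4G22390, AT4G03930 and AT1G66090 had the lowest WT means of the 37 (1.1 CPM, 1.13 CPM and 1.21 CPM), and AT1G09880 (0.895 CPM), the floral gene SEP3 (0.818 CPM) and AT3G22100 (0.803 CPM) fell short.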

How the data were processed

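RNA from whole seedlings was enriched with oligo(dT), primed with random hexamers and sequenced as 9 libraries, per the labels' protocols. The authors deposited, for each library, RSEM expected counts, FPKM values (normalised to length and depth) and an isoform-weighted transcript length per gene. The submitters' processing notes name HISAT, Bowtie2 2.2.5, RSEM 1.2.12 and TAIR10, with no further settings. The deposited files list genes at an FPKM of 0.01 or more, and a gene missing from one was set to 0.

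The set was chosen on CPM as described. For tests, expected counts were rounded and fitted across all 9 libraries with edgeR 4.0.16 (R 4.3.3) by genotype: TMM scaling, filterByExpr, quasi-likelihood F test and Benjamini-Hochberg adjustment over 20751 genes, after the script was tested on simulated data. Fold changes are log2, ± SE. DESeq2 1.42.0 and limma 3.58.1 (log2 of FPKM plus 0.1) were alternatives. Promoters, overlaps and neighbours come from RefSeq TAIR10.1.

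The 37 genes, the gene lists and the markers were chosen with earlier results of these data known. Genes outside the 37 were named as the up to 4 with the smallest adjusted p in a list holding one of them, or as those nearest a limit. KIN1, TT7 and the overlapping or neighbouring genes were named after their values were seen.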

Additional observations from a re-analysis of the deposited data

How the results depend on the processing

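Membership depended on the limits: the 37 genes became 17 at a WT mean of at least 5 CPM, 188 at 1.5 times WT, 9 at 3 times WT, 9 with bbx202122 at 0.9 to 1.1 of WT and 74 at 0.67 to 1.5. Leaving out 1 library gave 30 to 42 genes, and 5 of the 37 (AT1G80130, PGAZAT, AT4G20690, RD20 and AT1G52000) were chosen in all 9 cases. TMM-scaled CPM gave 43 genes, the 37 among them, and deposited FPKM gave 33, of which 32 are among the 37. All 37 were called in hy5 against WT under all 15 alternatives of the fit, which the rule fixes and which is no sign of stability. Of 495 values of named genes outside the 37 under these alternatives, 485 kept their call, and the other 10 are those of GPT2, SPX1 and AT4G20700 given above. In bbx202122 against WT, leaving out 1 library gave 2236 to 3482 calls over all genes (3504 with all libraries, and 2236 without WT replicate 2) and 0 to 3 among the 37. Anthocyanin regulators called higher in hy5 numbered 3 to 5. In alternatives chosen after seeing the data, early flavonoid enzymes called lower in hy5 numbered 2 to 5, and calls among neighbouring genes numbered 20 to 28 (27 with all libraries).

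Replicate numbers did not pair the mutant libraries with those of WT. Same-number libraries correlated at -0.051, -0.023 and -0.026 between hy5 and WT, at 0.139, 0.072 and 0.037 between hy5 and bbx202122, and at -0.079, -0.033 and -0.063 between bbx202122 and WT, in deviations from the group means. Each hy5 and bbx202122 library correlated best with its own number in the other mutant, a hint from the data and not the design, whereas the mutant and WT libraries did not. With a replicate block, 7884 genes were called in hy5 against WT, 4445 in hy5 against bbx202122 and 3143 in bbx202122 against WT, with 37, 37 and 0 of the 37 genes. Depth limits the weaker genes: 20 of the 37 had under 500 counts summed over the 3 WT libraries.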

Other observations

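The opposite pattern was more frequent. By the mirrored rule 199 genes were lower in hy5 only, with a median hy5 over WT ratio of 0.428, and 46 genes were at least 2-fold higher in both mutants, with median ratios of 2.86 in hy5 and 2.41 in bbx202122. The 199 genes held 0.160% of counts in hy5, 0.390% in bbx202122 and 0.412% in WT.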
